A study of Mus musculus with 24 samples.

Results

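The 47 genes described here encode proteins of the presynaptic terminal that store, dock, fuse and retrieve synaptic vesicles. They were taken by gene symbol from a list drawn up with earlier results of these data known, using no value of their own as a criterion, and all 47 were found among the 24972 genes measured. RNA had been sequenced from the medial prefrontal cortex (mPFC) of B6D2F1/J mice at postnatal day (P) 21, in 6 male MO, 6 male SAL, 6 female MO and 6 female SAL libraries. MO offspring came from C57BL/6J dams injected daily with 10 mg/kg morphine, and SAL offspring from C57BL/6J dams injected with saline. All sires were DBA/2J. Treatment began before breeding and lasted through gestation and lactation until P21, although the sample labels call it prenatal, and only the dams were injected. Small litters were combined after birth, 1 offspring per litter and sex was taken, so most litters gave both a male and a female library, but which libraries are littermates is not given. Libraries carry the names PFC1 to PFC24.

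When an action potential reaches a terminal, calcium enters at the active zone and is sensed by synaptotagmins on the vesicle. Vesicles there have already been docked and primed by RIM and Munc13 proteins, and the SNARE proteins of vesicle and plasma membrane then zip together and fuse the membranes, with complexins and tomosyn as regulators. NSF pulls used SNARE complexes apart, and dynamin, amphiphysin, endophilin and synaptojanin take the membrane back to form new vesicles. In the prefrontal cortex most terminals release glutamate, which is loaded into vesicles by VGLUT1 in cortical neurons and by VGLUT2 in the axons of thalamic neurons, while inhibitory interneurons use much of the same release machinery.

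The values are normalized counts as the authors scaled them, in separate tables for males and females, so levels were compared only within a sex. From the steps between low values, 1 read was worth between 0.782 and 1.18 normalized counts in a library, so a normalized count is close to a read. Summed over all genes and in units of 1e6, male libraries held 15.5 to 15.97 and female libraries 14.7 to 15.5. All 7 markers of excitatory cortical neurons were found in every library, at summed levels of 105337 to 127940 normalized counts (Slc17a7 is both 1 of these 7 and 1 of the 47 genes). Column names of 11 libraries end in "combined" (4 female MO, 4 female SAL, 2 male MO and 1 male SAL), and what was combined is not stated.

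Promoters are shown for 3 of the genes that are taken up again in the results below. These are Syn1, which encodes synapsin 1, a phosphoprotein that coats vesicles and tethers the reserve pool, and Syt2 and Vamp1, a calcium sensor and a vesicle SNARE whose levels varied together. Each sequence runs 5′ to 3′ from 250 bases before to 50 bases after a RefSeq transcription start (build GRCm38.p6), in lower case with motifs in capitals. In Syn1 the capitals mark TTCAGCACC, a part of the RE1 element to which the neuronal gene repressor REST binds, and TGACGTCA, the cAMP response element. In Syt2, which has 2 such promoters, and in Vamp1 they mark GGGCGG or its reverse complement, the box to which Sp1 binds.
Syn1 (chrX:20920869-20921168, minus strand): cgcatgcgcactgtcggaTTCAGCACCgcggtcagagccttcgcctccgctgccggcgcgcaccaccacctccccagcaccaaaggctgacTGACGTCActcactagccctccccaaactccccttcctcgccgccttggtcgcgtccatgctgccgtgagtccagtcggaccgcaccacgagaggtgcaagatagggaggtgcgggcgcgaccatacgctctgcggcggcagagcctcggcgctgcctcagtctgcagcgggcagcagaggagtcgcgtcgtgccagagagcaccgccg
Syt2 (chr1:134646362-134646661, plus strand): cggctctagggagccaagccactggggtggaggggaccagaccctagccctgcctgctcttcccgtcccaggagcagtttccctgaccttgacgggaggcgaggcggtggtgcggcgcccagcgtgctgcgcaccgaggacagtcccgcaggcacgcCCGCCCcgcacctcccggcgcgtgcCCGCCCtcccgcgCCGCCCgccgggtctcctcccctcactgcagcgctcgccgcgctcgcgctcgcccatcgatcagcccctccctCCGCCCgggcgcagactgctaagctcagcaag
Syt2 (chr1:134709050-134709349, plus strand): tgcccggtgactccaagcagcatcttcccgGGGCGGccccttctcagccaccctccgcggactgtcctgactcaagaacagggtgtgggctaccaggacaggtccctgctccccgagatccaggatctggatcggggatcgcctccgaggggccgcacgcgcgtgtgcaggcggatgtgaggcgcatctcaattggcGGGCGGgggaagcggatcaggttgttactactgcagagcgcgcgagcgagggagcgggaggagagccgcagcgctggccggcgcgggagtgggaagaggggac
Vamp1 (chr6:125215331-125215630, plus strand): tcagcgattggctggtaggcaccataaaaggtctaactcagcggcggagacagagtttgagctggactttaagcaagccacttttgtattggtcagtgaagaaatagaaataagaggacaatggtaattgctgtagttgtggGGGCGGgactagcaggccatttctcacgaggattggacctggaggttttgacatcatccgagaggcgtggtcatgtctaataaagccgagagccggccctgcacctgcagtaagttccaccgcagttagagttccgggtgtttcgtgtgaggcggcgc
The Syn1 window is 68.3% G and C and holds each of its 2 motifs once. The Syt2 windows hold 4 and 2 Sp1 boxes and the Vamp1 window 1. RefSeq promoters were matched for 36 of the 47 genes, 47 windows in all, and both strands were searched. The Sp1 box occurred in 31 of these 47 windows (66.0%) and in 35.7% of all 32851 promoters. The cAMP response element occurred in 2 windows (Syn1 and Sh3gl2), against 1.79% of all promoters, and the RE1 part also in 2 (Syn1 and Unc13a), against 0.371% of all promoters. The median share of G and C was 62.0% in the 47 windows and 52.7% in all promoters. A match describes the letters of the window and does not show that a factor binds there.

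The genes spanned a wide range of levels. Per kilobase (kb) of annotated exon, the highest in male SAL libraries was Snap25, which encodes the plasma membrane SNARE SNAP-25, at 16437 ± 843 normalized counts per kb (SD, n = 6), and the lowest was Sv2c, a vesicle glycoprotein gene, at 11.05 ± 3.94. That is a ratio of 1488, and in female SAL libraries it was 1699. After Snap25 came Syp (synaptophysin, an abundant vesicle membrane protein) at 14298 ± 870 per kb, Slc17a7 (VGLUT1) at 11510 ± 551, Vamp2 (synaptobrevin 2, the main vesicle SNARE of the forebrain) at 8537 ± 403, Syt1 (the fast calcium sensor of forebrain synapses) at 7695 ± 155 and Rab3a (a vesicle GTPase) at 6807 ± 353. The same 6 genes led in the same order in female SAL libraries. The 10 highest genes held 66.4% of the summed level per kb of all 47 in each sex.

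Some families had 1 member far above another, and others were more even. Vamp2 stood at 8537 per kb and Vamp1 at 188 ± 33.2 in male SAL, Syt1 at 7695 and Syt2 at 39.8 ± 11.1, Slc17a7 at 11510 and Slc17a6 (VGLUT2) at 84.8 ± 12.9. Of the Munc13 genes, which prime vesicles, Unc13a was at 392 ± 26.8, Unc13c at 55.7 ± 9.65 and Unc13b at 19.6 ± 1.34 per kb. The complexin genes, whose products clamp and then assist fusion, were more even between Cplx1 (4732 ± 206) and Cplx2 (3887 ± 356), with Cplx3 at 96.2 ± 22.8. Syn1 (4749 ± 290) and Syn2 (2638 ± 77.1), Sv2b (2347 ± 90.03) and Sv2a (1791 ± 114), and Syngr1 (3307 ± 112) and Syngr3 (1940 ± 147) also lay close together, and between Syt1 and Syt2 stood Syt11 (3516 ± 126), Syt5 (1959 ± 126) and Syt4 (1609 ± 74.2). Neighbours in the order of levels often could not be separated. Ranges of the 6 male SAL libraries overlapped for 31 of the 46 neighbouring pairs, and those of the 6 female SAL libraries for 34 of 46. Snap25, Syp, Slc17a7 and Vamp2 were separated from each other in male SAL libraries, whereas Vamp2 and Syt1 overlapped there. Exon length was the union of annotated exons, so genes with long isoforms that are not used in cortex appear lower per kb.

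Most of the genes varied little between animals outside the female MO group. The share over all genes was not computed, so it is not known whether this sets the 47 genes apart. The coefficient of variation was under 10% for 35 of 47 genes in male MO, 38 in male SAL, 7 in female MO and 30 in female SAL libraries, and for 33 in female MO without PFC1. Sh3gl2 (endophilin A1) had the smallest in male SAL libraries at 1.86%, followed by Syt1 at 2.02%. Cplx3, which in the cortex is known from deep-layer subplate neurons, had the widest spread in 3 of the groups, with a coefficient of 44.7% in male MO, 47.7% in female MO and 61.7% in female SAL. Its lowest and highest values were 118 and 474 normalized counts for male MO, 179 and 371 for male SAL, 190 and 588 for female MO, and 143 and 647 for female SAL. The MO and SAL ranges of Cplx3 covered much of each other in both sexes, and its log2 fold changes of MO over SAL had wide 95% intervals, -0.65 to 0.40 in males and -0.53 to 0.89 in females, or -0.63 to 0.80 without PFC1. In male SAL libraries Sv2c and Syt2 varied more, with 35.6% and 27.9%.

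Female MO library PFC1 stood apart from the other 11 female libraries. It had the lowest value of all 12 in 34 of the 47 genes (72.3%), the highest in 4 and an intermediate value in 9. Over genes at a mean of at least 100 normalized counts in females, it was the lowest in 39.0% and the highest in 24.3%. Its median deviation over the 47 genes was -0.52 on the log2 scale, whereas the other 23 libraries lay between -0.11 and 0.10 against their own sex. The 47 genes held 2.09% of its normalized counts, against 2.60% to 2.83% in the other female libraries.

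The genes that were low in PFC1 came from every role. It was the lowest library in 9 of 10 vesicle protein genes and 6 of 9 synaptotagmin and Doc2 genes. The same held for 5 of 9 SNARE and regulator genes and 5 of 9 active zone genes. It was also lowest in 3 of 4 genes of Rab3 and its effector, both glutamate transporter genes and 4 of 4 endocytosis genes. Doc2a, a calcium sensor gene, had 688 normalized counts in PFC1 and 1212 to 1687 in the other female libraries. Syt1 had 17022 against 28566 to 38046, Dnm1 (dynamin 1) 11632 against 19879 to 24426, and Nsf 8973 against 14730 to 17554. The 4 genes that were highest in PFC1, named after their values were seen, were Rims1, Unc13c, Sv2c and Cplx2. Rims1, an active zone scaffold gene, had 7210 normalized counts there and 3200 to 6142 in the others, and Cplx2 had 28542 against 17904 to 22370.

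Marker genes of other cells also stood apart in PFC1. All 6 oligodendrocyte markers were highest there (sum 295945 normalized counts, against 30153 to 167984 in the other female libraries), as were all 6 astrocyte markers (110584 against 56730 to 95152), all 6 microglia markers (9935 against 3792 to 7369) and all 6 markers of striatal projection neurons (6197 against 1961 to 2949). Of 7 inhibitory neuron markers 5 were lowest in PFC1, with a sum of 9774 against 11256 to 14414. Of 7 excitatory neuron markers 4 were lowest and 1 was highest (sum 124808, against 109876 to 126413). The highest was Camk2a, at 64546 normalized counts against 35868 to 55305, which makes up much of that sum. The 6 markers of all neurons were not shifted together, with a sum of 37549 against 34760 to 39244. Of these Tubb3 was lowest in PFC1, and the noncoding RNAs Meg3 and Snhg11 were highest. In tissue RNA, fewer cells of a type and less RNA per cell cannot be told apart, and the part of these markers in the levels of PFC1 was not tested. Female comparisons below are given with and without PFC1.

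Among male libraries the deviations were smaller. PFC15 (male MO) was lowest of 12 in 17 of the 47 genes (36.2%), against 11.3% of genes at a mean of at least 100 normalized counts. Its median deviation was -0.11, and it held the highest sum of oligodendrocyte markers in males (134475 normalized counts). PFC16 (male SAL) was lowest in 10 genes and highest in 15 (31.9%), against 16.5% and 18.2% of genes at that mean. It held the highest sum of striatal neuron markers in males at 4858, the other 11 lying between 1762 and 3379. Sv2c, a gene known from the basal ganglia, was highest in PFC16, at 174 normalized counts.

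**Figure D1:**
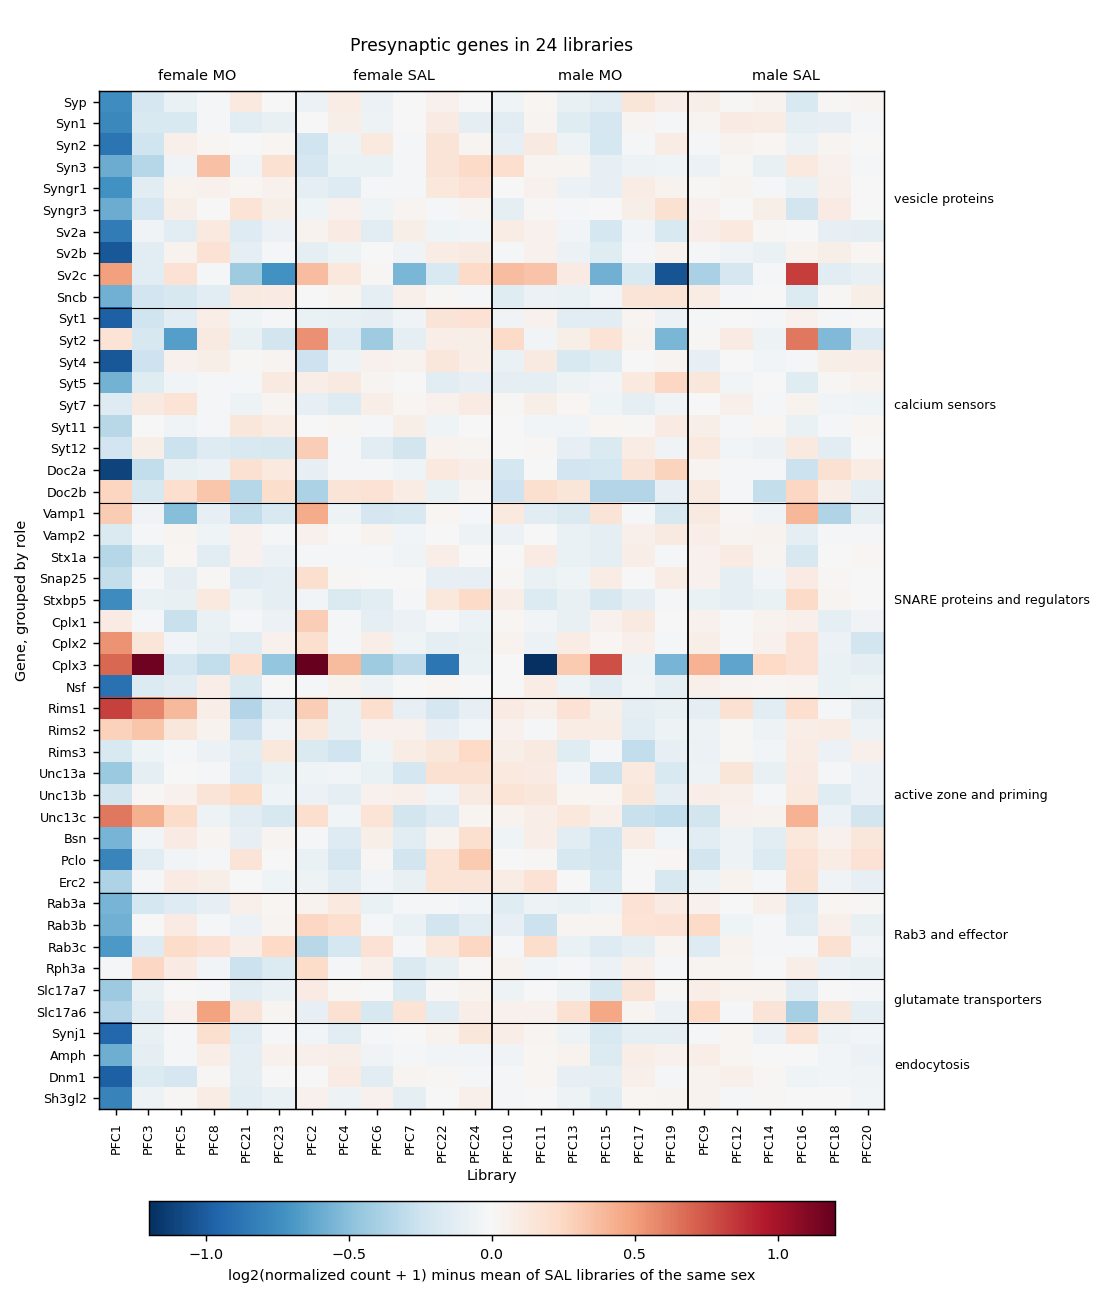
Each of the 47 genes (rows, by role) in each of the 24 libraries (columns, by group), as log2(normalized count + 1) minus the mean of the SAL libraries of the same sex, with colours that stop at 1.2 in either direction. The column of PFC1 is the lowest of the female libraries in 34 rows, and the row of Cplx3 is the most variable.

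**Figure D2:**
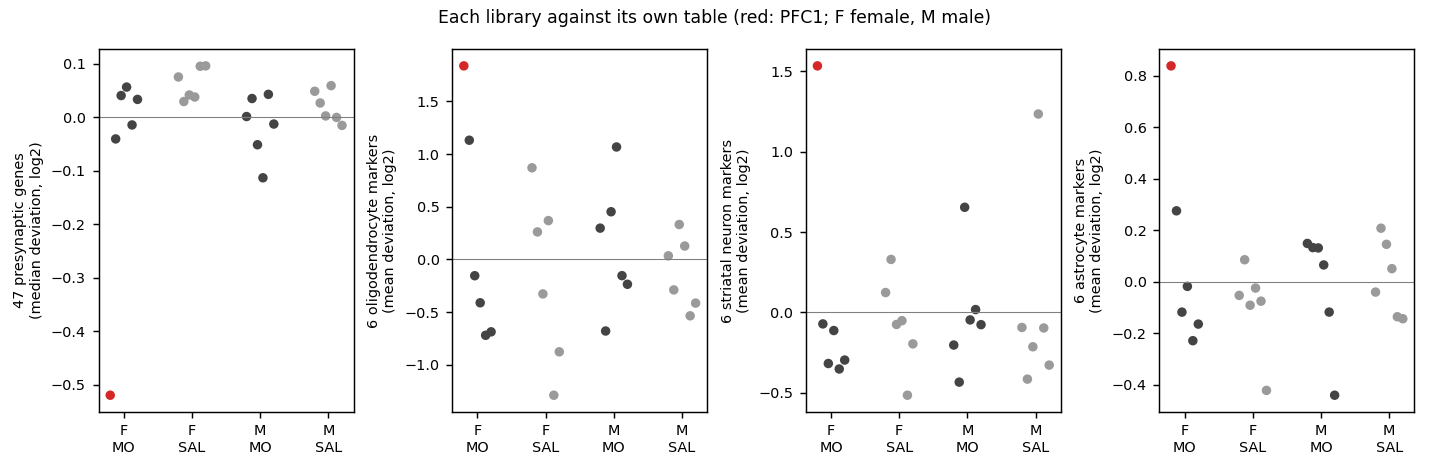
Median deviation of the 47 genes and mean deviation of the oligodendrocyte, striatal neuron and astrocyte markers (y axes, log2) in each library, by group (x axis). The 47 genes were measured against the other libraries of the same sex, and the markers against the mean of all 12. PFC1, in red, lies at -0.52 for the 47 genes and above every other female library in the 3 marker lists.

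In male offspring, MO libraries were compared with SAL libraries to see whether exposure had changed the expression of the release machinery. None of the 47 genes differed at an unadjusted p under 0.05 (limma), a threshold that 2.85% of the 16662 genes tested passed (1.33% higher and 1.52% lower in MO). With Benjamini-Hochberg adjustment the smallest p was 1.00, and over all genes 0 passed 0.05. In the exact permutation test over libraries 0 of 47 were under 0.05, with a smallest p of 0.203, against 3.05% of all genes. The log2 fold change of MO over SAL was above 0 for 13 genes and below 0 for 34. Its median was -0.02, against -0.00 over all genes tested. Without PFC16 it was -0.02 with 14 genes above 0, and without PFC15 it was -0.00 with 22 above 0. The median 95% interval of a gene reached 0.12 to either side of its estimate. Within libraries marked combined the median difference was -0.01 (2 MO and 1 SAL) and within the others -0.03 (4 and 5).

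The vesicle protein genes had log2 fold changes of -0.16 to 0.02 in males, 3 of 10 being above 0. Syn1 had 13592, 14888 and 15954 normalized counts (lowest, median and highest library) in male MO, against 14534, 15749 and 16704 in male SAL. The groups overlapped, 4 of 6 MO libraries lay below the SAL mean, and the log2 fold change was -0.07 (standard error 0.05, 95% interval -0.18 to 0.04, limma unadjusted p = 0.177). Syp, at 33567, 36602 and 40979 in male MO and 32581, 37608 and 38898 in male SAL, had a log2 fold change of -0.01. Among the calcium sensors Syt1 had 33917, 35797 and 38504 normalized counts in male MO and 36475, 36979 and 38508 in male SAL (log2 fold change -0.05, 95% interval -0.13 to 0.04). In all 3 genes the MO and SAL ranges overlapped, and that of SAL was the narrower for Syt1.

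Of the SNARE genes, Snap25 had 34639, 36808 and 39138 normalized counts in male MO and 33774, 36777 and 39286 in male SAL, a log2 fold change of 0.01 (95% interval -0.09 to 0.11). Vamp2 had 22407, 23540 and 25996 in male MO, against 22170, 24284 and 25442 in male SAL (log2 fold change -0.01, 95% interval -0.11 to 0.08). Stx1a (syntaxin 1A, the partner of SNAP-25 in the plasma membrane) had 5727, 6150 and 6642 in male MO and 5422, 6335 and 6648 in male SAL. In these 3 core SNARE genes the male groups covered nearly the same range. Stxbp5 (tomosyn, which binds SNARE proteins and restrains fusion) had the smallest unadjusted p of the 47 in males, at 1864, 1984 and 2237 in male MO against 1976, 2068 and 2488 in male SAL (log2 fold change -0.08, standard error 0.06, limma unadjusted p = 0.173). The highest of its values was that of PFC16.

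The glutamate transporters took opposite signs in males. Slc17a7 had 30153, 33671 and 38176 normalized counts in male MO and 31559, 34760 and 36237 in male SAL (log2 fold change -0.02, 95% interval -0.14 to 0.09). Slc17a6 had 330, 361 and 480 in male MO, against 264, 363 and 409 in male SAL (log2 fold change 0.12, 95% interval -0.10 to 0.34), with the lowest value in PFC16. Both intervals hold 0 and the ranges overlapped. Doc2b, a calcium sensor gene of spontaneous release, had 294, 334 and 429 in male MO and 308, 383 and 447 in male SAL (log2 fold change -0.12, 95% interval -0.34 to 0.10). The 4 endocytosis genes were all below 0, between -0.06 for Synj1 (synaptojanin 1, a lipid phosphatase) and -0.00 for Amph, and the active zone genes lay between -0.07 and 0.06.

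In female offspring most estimates lay below 0, and their intervals were wider than in males. None of the 47 genes passed an unadjusted p of 0.05, a threshold that 2.93% of the 16717 genes tested passed (1.81% higher and 1.12% lower in MO), and the smallest adjusted p was 0.918 (limma). Of the 47 genes, 9 had a log2 fold change above 0 and 38 below it. The median was -0.11, against 0.00 over all genes, and the median 95% interval reached 0.26 to either side. Without PFC1 the median was -0.02, 17 genes were above 0 and 30 below, and the interval reached 0.15. With array weights, which gave PFC1 a weight of 0.189, the median was -0.03 with 17 genes above 0. Scaled to the reference genes Gapdh and Ppia, the female median was -0.02 with 20 genes above 0, where the median of all genes was 0.09, and the male median was -0.05 with 3 above 0, where that of all genes was -0.03. Without PFC1, 1 gene, Syn1, passed the unadjusted threshold as lower, against 2.26% of the 16590 genes then tested (1.25% higher and 1.01% lower). The median difference within libraries marked combined was -0.12 (4 MO and 4 SAL), or -0.01 without PFC1, and within the others -0.09 (2 and 2). The exact permutation test found 2 of 47 genes under 0.05 with PFC1 (Syn1, p = 0.0130, and Dnm1, p = 0.0476) and 1 without it (Syn1, p = 0.0260). The same exact test was under 0.05 for 3.65% of all genes with PFC1 and for 2.8% without it, so 2 and 1 of 47 are near what all genes gave.

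Syn1 was the gene with the smallest p in females. It had 8754 normalized counts in PFC1 and 13120, 13114, 14686, 13602 and 13987 in the other female MO libraries. Female SAL libraries had 14969, 15624, 14279, 14897, 15978 and 13856. All 6 MO libraries lay below the SAL mean, while the 2 groups overlapped between 13856 and 14686. The log2 fold change was -0.23 (standard error 0.11, 95% interval -0.47 to 0.00, limma unadjusted p = 0.0522). Without PFC1 it was -0.12 (standard error 0.06, 95% interval -0.24 to -0.00, limma unadjusted p = 0.0451, adjusted p = 1.00). Left out in turn, PFC8 and PFC23 of the MO group also brought the unadjusted p of Syn1 under 0.05, to 0.0301 and 0.0445. Of all genes, 5.06% and 3.48% passed in those fits. Within libraries marked combined the log2 difference was -0.29 (4 MO and 4 SAL libraries) or -0.13 without PFC1, and within the others it was -0.11 (2 and 2).

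All 10 vesicle protein genes had a log2 fold change below 0 in females, with a median of -0.15, and 7 of 10 did without PFC1, with a median of -0.03. Syp had 21440, 34829 and 39080 normalized counts in female MO, against 34347, 36048 and 38284 in female SAL (log2 fold change -0.16, and -0.04 without PFC1). Sncb (beta-synuclein) had 4800, 6385 and 7697 in female MO and 6643, 7197 and 7453 in female SAL (-0.15, and -0.07 without PFC1). In both genes the MO range enclosed that of SAL, with PFC1 at its lower end.

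The 4 endocytosis genes showed the same dependence on PFC1. Their median log2 fold change was -0.17 with it and -0.03 without it. Dnm1 had 11632, 20742 and 23088 normalized counts in female MO and 20897, 22972 and 24426 in female SAL, a log2 fold change of -0.24 (standard error 0.14, 95% interval -0.54 to 0.06). Without PFC1 it was -0.10 (standard error 0.06, 95% interval -0.23 to 0.04, exact permutation p = 0.0866). Synj1 had 3277, 6041 and 7183 in female MO, against 5735, 6251 and 6896 in female SAL (-0.17, and -0.02 without PFC1). For both genes the lowest of the 12 values was that of PFC1, and the other ranges overlapped.

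Synaptotagmin and SNARE genes were less uniform. Syt1 had 17022, 31652 and 35556 normalized counts in female MO and 31017, 32251 and 38046 in female SAL (log2 fold change -0.22, and -0.07 without PFC1). Syt12, a synaptotagmin that does not bind calcium, had 506, 532 and 635 in female MO, against 519, 610 and 745 in female SAL. Its log2 fold change was -0.16 (standard error 0.09, limma unadjusted p = 0.0836) and -0.14 without PFC1, so it rested little on that library. Leaving out PFC3 (MO) or PFC7 (SAL) brought its unadjusted p to 0.0306 or 0.0318. Nsf had 8973, 15003 and 17554 in female MO and 15963, 16705 and 17164 in female SAL (-0.22, and -0.08 without PFC1). Snap25 had 28666, 32315 and 35291 in female MO and 32569, 34797 and 39807 in female SAL (-0.10, and -0.07 without PFC1).

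For Vamp1 and Syt2, the low members of these families, the estimates lay further from 0 without PFC1. Vamp1 had 519, 670 and 913 normalized counts in female MO, against 641, 718 and 1007 in female SAL, with the highest MO value in PFC1. Its log2 fold change was -0.14 (95% interval -0.41 to 0.14) and, without PFC1, -0.23 (95% interval -0.46 to 0.01, limma unadjusted p = 0.0571), when 5 of 5 MO libraries lay below the SAL mean. Syt2 had 163, 234 and 289 in female MO and 192, 254 and 378 in female SAL (-0.15, and -0.21 without PFC1). Both genes kept overlapping ranges. Vamp2, by contrast, had 20882, 23380 and 24417 in female MO and 22693, 23575 and 24535 in female SAL, a log2 fold change of -0.03 and of 0.00 without PFC1 (95% interval -0.11 to 0.11).

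Active zone genes and glutamate transporters were on both sides of 0 in females. Rims1 had 3200, 4832 and 7210 normalized counts in female MO, against 3549, 3826 and 5010 in female SAL (log2 fold change 0.23, 95% interval -0.13 to 0.59, and 0.11 without PFC1). Both its highest and its lowest value were in MO libraries. It passed an unadjusted p of 0.05 when PFC21, the lowest, was left out, and 4.98% of all genes passed then. Unc13c had 427, 521 and 761 in female MO and 419, 491 and 563 in female SAL (0.15, and 0.05 without PFC1). Rab3a had 8152, 10952 and 12506 in female MO and 11316, 11795 and 12977 in female SAL (-0.16, and -0.08 without PFC1). Slc17a7 had 24986, 31841 and 33682 in female MO, against 30034, 34021 and 36047 in female SAL (-0.12, and -0.06 without PFC1). Slc17a6 had 255.8, 336 and 458 in female MO, against 286, 326 and 371 in female SAL (0.04, and 0.12 without PFC1). These ranges all overlapped between the groups.

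The remaining 27 genes lay on both sides of 0 in males and mostly below it in females. In males 11 were above 0 and 16 below, with log2 fold changes of -0.16 to 0.06. In females 5 were above 0 and 22 below, and without PFC1 12 were above and 15 below. Among vesicle proteins, Sv2a, whose product is the binding site of the antiepileptic drug levetiracetam, had 6717, 7564 and 8251 normalized counts in male MO, against 7168, 7793 and 8400 in male SAL, and 4126, 6877 and 7981 in female MO, against 6763, 7403 and 7877 in female SAL. Its log2 fold change was -0.05 in males and -0.19 in females, or -0.06 without PFC1. Syn2, a second synapsin gene, had 6845, 12673 and 13071 in female MO and 10613, 12652 and 13999 in female SAL, so the medians were nearly equal while the log2 fold change was -0.17, or -0.03 without PFC1. Syn3, Syngr1 and Syngr3 (synaptogyrins, tetraspan vesicle proteins) were between -0.12 and -0.08 in females and between 0.01 and 0.02 without PFC1.

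Among the other synaptotagmin and Doc2 genes was Syt4, whose product binds calcium poorly. Syt4 had 2907, 5961 and 6163 normalized counts in female MO and 4953, 6062 and 6447 in female SAL (log2 fold change -0.18, and -0.02 without PFC1). Doc2a had 688, 1405 and 1687 in female MO, against 1388, 1463 and 1609 in female SAL (-0.21, and -0.03 without PFC1). In males both were at -0.04. Syt7, the sensor of slow and asynchronous release, was at -0.02 in males and 0.01 in females, or 0.04 without PFC1. Of the active zone scaffolds, Bsn had 6513, 7437 and 8169 in male MO and 7007, 7655 and 8421 in male SAL (-0.05), and Pclo had 3462, 4038 and 4105 in male MO and 3462, 4081 and 4553 in male SAL (-0.06). In females they were at -0.09 and -0.14, or 0.01 and -0.00 without PFC1. Unc13a, the main Munc13 gene of glutamate terminals, had 2818, 3579 and 3841 in female MO, against 3305, 3734 and 4363 in female SAL (-0.14, and -0.07 without PFC1). The MO and SAL ranges of Unc13a overlapped.

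**Figure D3:**
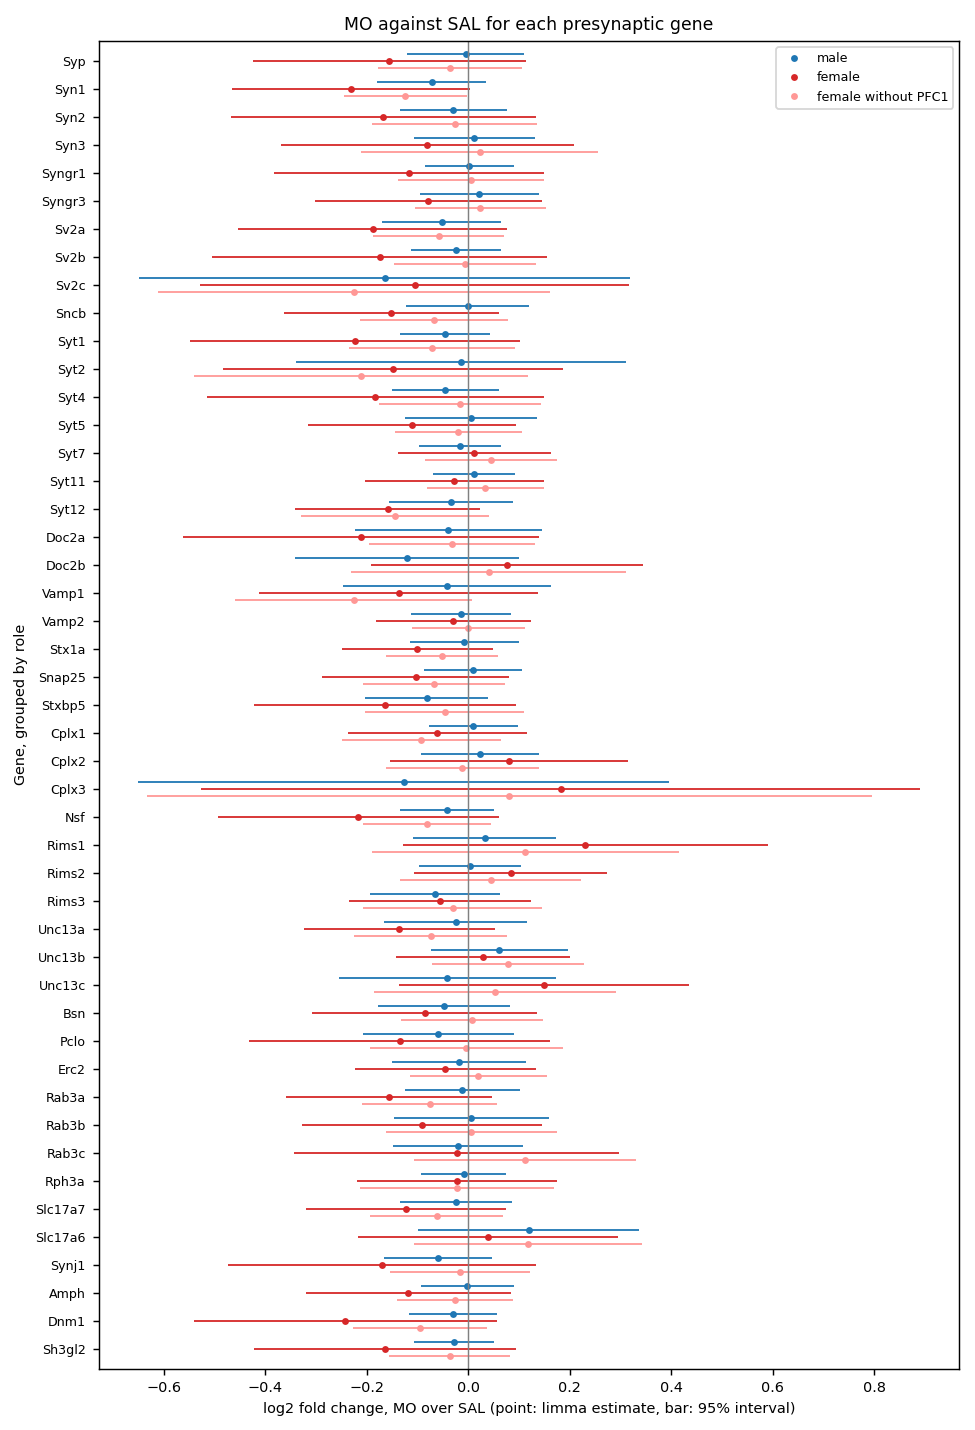
Log2 fold change of MO over SAL (x axis) for each of the 47 genes (y axis, by role), with limma estimates as points and 95% intervals as bars, in males, in females and in females without PFC1. Nearly all intervals cross 0, and the female medians are -0.11 with PFC1 and -0.02 without it.

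**Figure D4:**
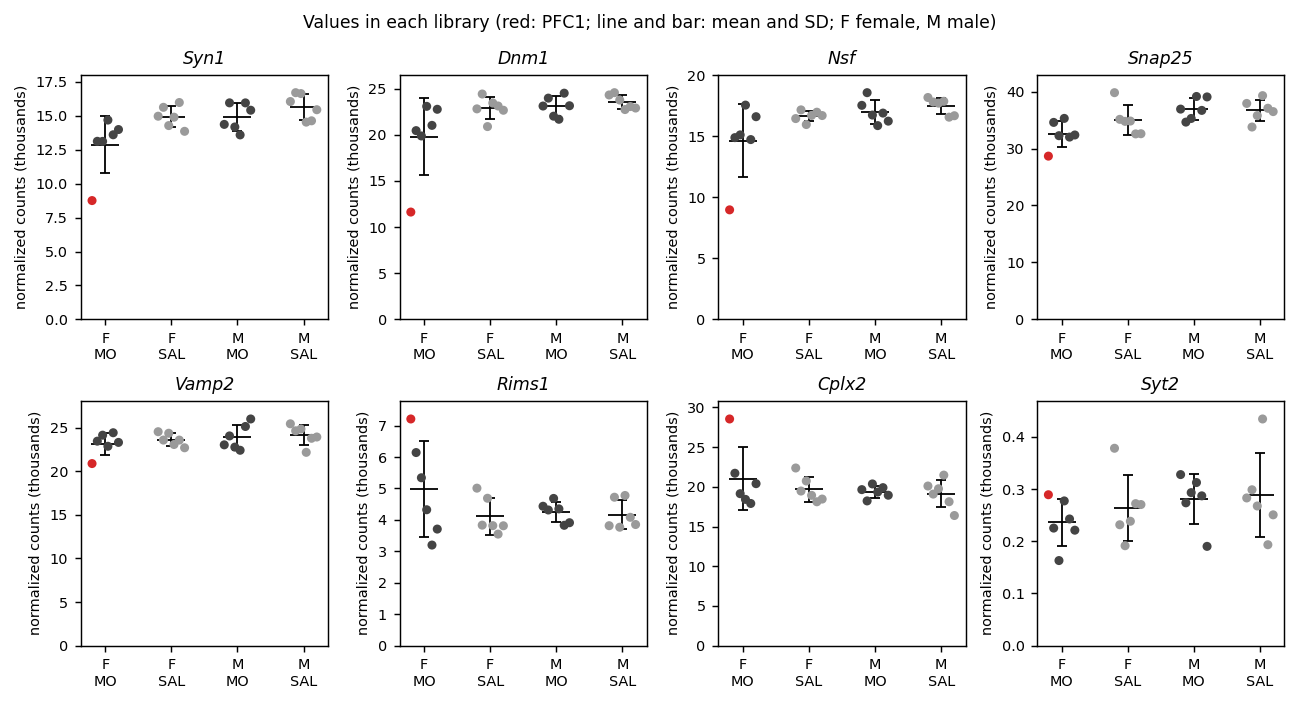
Normalized counts divided by 1000 (y axes) of 8 genes in each library, by group (x axis), with mean and SD as line and bar. PFC1, in red, is the lowest female library for Syn1, Dnm1, Nsf, Snap25 and Vamp2 and the highest for Rims1 and Cplx2, and lies inside the range for Syt2.

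Over both sexes, with sex as a term, 1 of the 47 genes passed an unadjusted p of 0.05 (limma), lower in MO, and none passed as higher. Of the 17303 genes tested 4.72% passed, 2.21% being lower and 2.51% higher, so 1 of 47 is near what all genes gave. That gene was Syn1, with a log2 fold change of -0.15 (standard error 0.06, 95% interval -0.28 to -0.02, limma unadjusted p = 0.0227, adjusted p = 0.847). Without PFC1 its estimate was -0.10 (95% interval -0.17 to -0.02, limma unadjusted p = 0.0144, adjusted p = 0.998), where 3.49% of all genes passed (1.72% higher and 1.77% lower). MO libraries lay below the SAL mean of their sex in 10 of 12 cases. The call for Syn1 held when each of the 24 libraries was left out in turn, but these fits share nearly all of their libraries. It was lost when libraries were scaled to the reference genes Gapdh and Ppia (log2 fold change -0.12, limma unadjusted p = 0.0589). Leaving out PFC8 (female MO) raised the count to 4 genes (Syn1, Sv2a, Stxbp5 and Nsf), in a fit where 7.67% of all genes passed, against 4.72% with all libraries, and Syt12 passed without PFC3, PFC7, PFC17 or PFC18, where 3.96% to 5.14% of all genes did.

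The other 46 genes did not pass in the fit over both sexes. Of all 47, 7 were above 0 and 40 below, with a median of -0.06 against 0.00 over all genes, and without PFC1 the count was 13 above and 34 below and the median -0.03. The next smallest unadjusted p values were those of Syt12 (log2 fold change -0.10, limma unadjusted p = 0.0746), Nsf (-0.13, unadjusted p = 0.0806), Dnm1 (-0.14, unadjusted p = 0.0868) and Stxbp5 (-0.12, unadjusted p = 0.0871). Without PFC1 these estimates were -0.09, -0.06, -0.06 and -0.07. By the sampling of 1 offspring per litter and sex, most litters must have given both a male and a female library. Since the pairs are not given, this fit and the interaction treat all 24 libraries as independent, and their p-values, that of Syn1 included, take no account of shared litters.

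Whether the difference between MO and SAL itself differed between the sexes was tested as an interaction. None of the 47 genes passed an unadjusted p of 0.05, against 2.1% of all 17303 genes (limma), 1.34% with the higher and 0.763% with the lower MO effect in females. The smallest was that of Dnm1 (female minus male difference -0.21, standard error 0.15, limma unadjusted p = 0.173), which was -0.06 without PFC1 (limma unadjusted p = 0.362). For Syn1 the difference was -0.16 (95% interval -0.41 to 0.10, limma unadjusted p = 0.211), and without PFC1 it was -0.05 (95% interval -0.21 to 0.10, limma unadjusted p = 0.497). The median over the 47 genes was -0.10 with PFC1 and -0.00 without it, when 23 genes were above 0 and 24 below. Without PFC1 none of the 47 passed either, against 1.93% of all genes (1.02% and 0.911%).

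Some pairs of these genes varied together among animals, after the mean of each group had been removed. Syt2 and Vamp1 are both known from fast-spiking interneurons and from caudal brain regions, and their levels moved together in males (Pearson r = 0.887, Spearman rho = 0.832, permutation p = 0.00063 and 0.00156, adjusted p = 0.00197 and 0.00624 over the 8 values computed, n = 12). In females r was 0.870 and rho 0.881 (permutation p = 0.00074 and 0.00056, adjusted p = 0.00197 and 0.00448), and without PFC1 r was 0.882. Without the 2 libraries farthest from the median of Syt2, r was 0.873 in males and 0.718 in females. The libraries at the upper end were PFC16 (434 normalized counts of Syt2 and 1002 of Vamp1) and PFC2 (378 and 1007), both SAL. PFC16 also held the highest striatal marker sum in males, and PFC2 (2949) the highest of the female libraries other than PFC1. PFC1 had a higher sum still (6197), but its Syt2 (289) and Vamp1 (913) lay inside the range of the other female libraries. The part of tissue composition in this relation was not tested.

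Syt2 and Cplx1, the complexin gene of the same interneurons, gave r = 0.873 and rho = 0.755 in females (permutation p = 0.00201 and 0.00458, adjusted p = 0.00402 and 0.00916), 0.680 without the 2 farthest libraries and 0.854 without PFC1. In males r was 0.526 and rho 0.503 (permutation p = 0.0932 and 0.113, adjusted p = 0.124 and 0.150). The difference between the sexes was not tested. Bsn and Pclo, which encode the large scaffolds bassoon and piccolo of the active zone, gave r = 0.914 and rho = 0.804 in males (permutation p = 0.00025 and 0.00394, adjusted p = 0.00197 and 0.00916) and 0.942 without the 2 farthest libraries. In females r was 0.904 and rho 0.713 (permutation p = 0.00467 and 0.0149, adjusted p = 0.00747 and 0.0239), but PFC1 was low in both genes. Without PFC1 r was 0.694 (permutation p = 0.0520) and without PFC1 and PFC4 it was 0.647, so the female relation rests in part on PFC1. Snap25 and Syt1, the most abundant SNARE and calcium sensor genes, were not related in males (r = -0.197, rho = -0.231, permutation p = 0.554 and 0.485) or in females (r = 0.389, rho = 0.0490, permutation p = 0.264 and 0.887), where r was -0.446 without PFC1 (permutation p = 0.211).

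**Figure D5:**
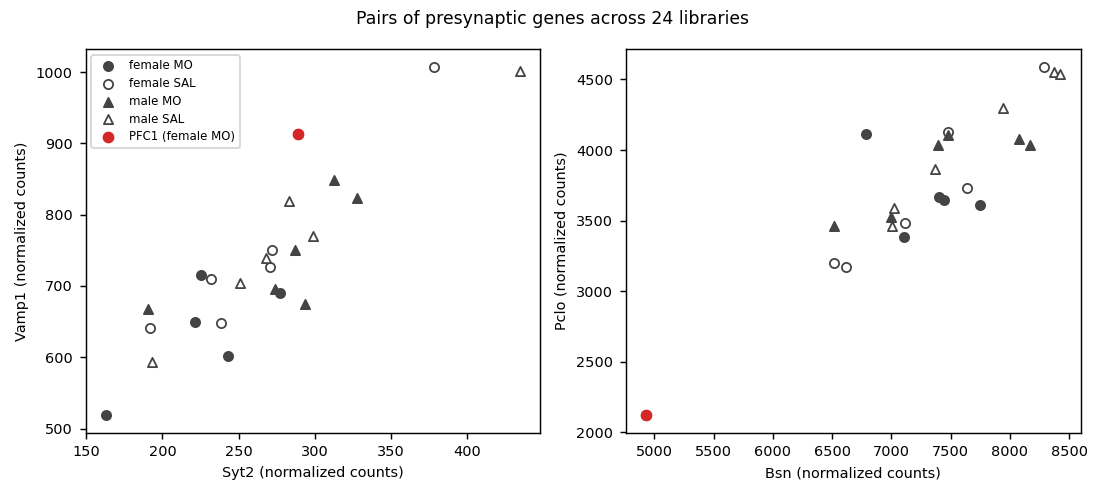
Normalized counts of Vamp1 against Syt2 (left) and of Pclo against Bsn (right) in the 24 libraries, with MO filled, SAL open, circles for females and triangles for males. PFC1, in red, is at the lower end of the Bsn and Pclo plot, and PFC16 and PFC2 are the 2 upper points of the Syt2 and Vamp1 plot.

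Other presynaptic genes, from a fixed list that excludes the 47, were read from the same fits for comparison. Of 88 tested, 1 was higher and 2 were lower in males at an unadjusted p under 0.05, 0 and 1 in females, and 1 and 4 over both sexes, with median log2 fold changes of -0.02, -0.04 and -0.05. Of all genes tested, 2.85%, 2.93% and 4.72% passed the same threshold in these fits. None passed an adjusted p of 0.05 in any fit (limma). Without PFC1 the median was -0.00 in females, where 0 of 88 passed the unadjusted threshold, and -0.01 over both sexes, where 1 was higher and 2 lower. Of all genes, 2.26% and 3.49% then passed it.

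Snap23, which encodes a SNARE of glia and of postsynaptic membrane rather than of terminals, had 80.5, 90.7 and 132 normalized counts in male MO, against 70.7, 76.8 and 87.6 in male SAL. The highest was that of PFC15, where the oligodendrocyte markers were highest in males. In females it had 67.7, 101 and 162 in MO and 72.1, 83.6 and 94.4 in SAL, with the highest in PFC1. Over both sexes its log2 fold change was 0.30 (standard error 0.12, limma unadjusted p = 0.0137) and 0.24 without PFC1 (limma unadjusted p = 0.0283). Slc18a3, the vesicular acetylcholine transporter gene, was listed at only 2.16, 5.79 and 11.4 in male MO, against 7.77, 8.37 and 23.7 in male SAL, and at 2.01, 5.43 and 9.27 in female MO, against 3.88, 8.40 and 13.5 in female SAL. Its log2 fold change over both sexes was -0.68 (standard error 0.25, limma unadjusted p = 0.0107), and -0.68 without PFC1 (limma unadjusted p = 0.0133), from a few reads per library. Caskin1, which encodes a scaffold that binds the presynaptic kinase CASK, had 1801, 1907 and 1944 in male MO and 1899, 2029 and 2100 in male SAL, and its log2 fold change there was -0.10 (standard error 0.04, limma unadjusted p = 0.0179). Vamp8, an endosomal SNARE gene, averaged 90.1 ± 11.2 in male MO and 106 ± 9.53 in male SAL (SD, n = 6 each), a log2 fold change of -0.23 (limma unadjusted p = 0.0334). In females Vamp8 was at 0.13, or -0.03 without PFC1, where it was highest. Prrt2, a gene of a SNARE-binding protein, had 2217, 3201 and 3407 in female MO and 3202, 3522 and 3883 in female SAL, a log2 fold change of -0.21 (limma unadjusted p = 0.0436) that was -0.12 without PFC1.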

How the data were processed

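Directional polyA libraries were sequenced as single reads, and the authors used STAR (mm10), Salmon and DESeq2 to align, quantify and normalize them. The deposited signal values are those normalized counts, 1 table for each sex, so the sexes were normalized separately and whole reads could not be recovered. Depth is known only as far as the value of 1 read shows it.

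Genes with a sum of at least 10 were kept. MO was compared with SAL on log2(value + 1) with limma 3.58.1 (R 4.3.3, trended moderation) within each sex, over both sexes and as an interaction, with Benjamini-Hochberg adjustment over all genes kept. Fold changes on this scale understate changes of low genes. Single genes were also compared by two-sided exact permutation over libraries (SciPy 1.17.1), where the smallest p allowed is 0.00216. Code was tested on simulated data. Within a sex, p-values measure the spread between offspring of different litters. Fits over both sexes hold littermates as independent.

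The 47 genes, marker lists and other presynaptic genes were chosen with earlier results of these data known. Values are given for genes at an unadjusted p under 0.05, the 5 with the smallest p in each fit and 12 set for their role, and up to 4 other presynaptic genes a fit. Further genes were chosen after their values were seen. Exon lengths came from GENCODE M21 (GRCm38) and promoters from RefSeq. Of 85-base exon stretches, 3.05% in Syt11 and 2.65% in Cplx2 occur elsewhere, and under 0.8% in the other 45 genes. Alternatives were another pseudocount, filter, normalization, array weights, a term for combined libraries, scaling to Gapdh and Ppia, and leaving out each library.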

Additional observations from a re-analysis of the deposited data

Results flagged for a closer look

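In groups of 6 libraries, a single library stood far from the rest of its own group in 13 of 80 groups tested (Dixon's test, critical value 0.625). For a single group chance gives about 1 in 20, but the 80 groups are 20 genes in the same 24 libraries. They are not independent, so the count cannot be set against that rate, and the share over all genes was not computed.

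Of these, 5 were values of PFC1, all below the other female MO libraries. Syn1 had 8754 normalized counts there (next lowest 13114), Stxbp5 had 1120 (next 1738), Nsf had 8973 (next 14730), Dnm1 had 11632 (next 19879) and Slc17a7 had 24986 (next 30847). These genes serve vesicle tethering, SNARE regulation, SNARE disassembly, membrane retrieval and glutamate loading. Dnm1 and Nsf were tested only for a small p in fits that hold PFC1, and Stxbp5 for a small p in such a fit and in males. Their choice was therefore not independent of the values of PFC1.

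Male SAL library PFC16 held 4 more. It was below its group in Syp (32581, next 37432), Stx1a (5422, next 6198) and Rab3a (10943, next 12186), and above it in Unc13c (645, next 501).

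The other 4 were in females. PFC2 (SAL) was above its group in Vamp1 (1007, next 750) and Snap25 (39807, next 35124), PFC22 (SAL) was above it in Stx1a (6573, next 6209), and PFC3 (MO) was above it in Syt12 (635, next 543).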

How the results depend on the processing

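Of 944 values computed under alternatives, 904 kept their direction and their side of the threshold or stayed within the limits set for them. The limit for a median was the SD between libraries within groups, which PFC1 itself widened in females. Of the values, 520 were single genes, and others were counts at an adjusted p under 0.05, which were 0 in every setting. The share kept therefore does not measure dependence on PFC1, with which the female median was -0.11 and without which it was -0.02. With quantile normalization the female count was 1 gene (Syn1, log2 fold change -0.21, limma unadjusted p = 0.0380) in place of 0, and 2.83% of all genes passed. Scaled to Gapdh and Ppia, the count over both sexes was 0 in place of 1. With that scaling the interaction median over all genes was 0.11, against -0.00 without it, and that of the 47 genes was 0.0208. The interaction median of the 47 genes was -0.000987 with array weights, against -0.10 in the report. The cause of these shifts was not tested. With each library left out in turn, the female count was 0 to 1, the count over both sexes 1 to 4 (4 without PFC8) and the interaction median -0.12 to -0.00041. The counts of other presynaptic genes were 0 in females and 3 over both sexes without PFC1, and the count by exact permutation in females was 1. Without PFC1 the correlation in females was -0.446 for Snap25 and Syt1 and 0.694 for Bsn and Pclo. No adjusted p passed 0.05 in any setting. No paired analysis was possible because no replicate number is shared between groups. A gene with a 95% interval of 0.26 to either side, the female median, cannot show smaller changes. That median was 0.15 in females without PFC1 and 0.12 in males. Which libraries share a litter is not given.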
